A study of Mus musculus with 8 samples.

Results

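The Slc25 family holds the mitochondrial carriers, small membrane proteins of which nearly all sit in the inner mitochondrial membrane. Its members here were the protein-coding genes of the count table whose GENCODE M21 symbol is Slc25a followed by a number. They came to 47 of the 38293 genes in the table, and the rule itself uses names, not measured values. They lie on 19 chromosomes, with 4 on the X chromosome. Poly(A) RNA was sequenced from the left ventricle of untreated male C57BL/6 mice aged 8 weeks, 1 library per heart. A group of 4 hearts was wild type (WT, replicates 1 to 4) and a group of 4 was labelled mORF4/NBDY KO (KO, replicates 5 to 8). Nbdy encodes a small protein that binds the mRNA decapping complex, and the labels do not describe the knockout allele or how litters were arranged.

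Carriers move metabolites, nucleotides, phosphate and cofactors across the inner membrane, usually by exchanging a molecule inside for another outside. In heart muscle the adenine nucleotide carrier sends ATP out to the contractile apparatus in exchange for ADP, and the phosphate carrier brings in the phosphate that ATP synthase needs. Other members feed the malate-aspartate shuttle, bring in fatty acids as acylcarnitines, or supply coenzyme A, NAD+, iron and glutathione.

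Total counts ran from 11101901 to 14699949 per library, and the 47 carriers took 0.762% to 1.07% of them. Nbdy itself had 241, 208, 246 and 248 counts in the WT hearts and 137, 135, 133 and 115 in the KO hearts. It fell by 0.97 on the log2 scale (SE 0.11, adjusted p = 0.0060 in edgeR's quasi-likelihood test), and the KO hearts kept 0.511-fold of the WT level (95% interval 0.430 to 0.606), so the transcript was lowered in the hearts labelled KO and not absent. Without KO replicate 6 the adjusted p was 0.056. Transcripts encoded in mitochondrial DNA took 29.2% of the counts of WT replicate 1, 19.4% to 19.9% in the other WT hearts and 23% to 26.7% in the KO hearts. Markers of ventricular cardiomyocytes summed to 54818 to 65098 CPM in WT and 57067 to 67598 CPM in KO, where CPM is the usual depth-scaled count, here on TMM-scaled library sizes. Fibroblast markers summed to 854 to 1073 CPM in WT and 675 to 871 CPM in KO, and all 5 had negative log2 fold changes. Endothelial markers summed to 809 to 1068 and 771 to 1059 CPM, and erythroid markers to 815 to 1782 and 1146 to 2147 CPM. Atrial markers, nearly all of it Nppa, summed to 264 to 481 and 457 to 713 CPM. Nppa had a log2 fold change of 0.59 (SE 0.19) and Myl4 of -0.0025 (SE 0.29). Myl7 averaged 0.919 CPM in WT and 0.464 in KO, and Sln 0.160 and 0.106 CPM. Adipocyte markers summed to 17.1 to 37.4 and 23.3 to 36.6 CPM, mostly Cidea, while Adipoq and Plin1 averaged under 1 CPM in both groups. Cfd was at 12.9 CPM in WT replicate 2 and 0.426 to 2.09 CPM in the other hearts, and Adipoq was highest in that same heart (1.84 CPM). Log2 fold changes were 0.24 for Cidea (SE 0.21) and -1.92 for Cfd (SE 0.79). None of these markers was at 0 in all libraries. In whole tissue, fewer cells of a type and less RNA per cell cannot be told apart.

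No carrier transcript differed between KO and WT hearts past an adjusted p of 0.05. The test covered 41 of the 47 members, the other 6 having too few counts. Over all 13336 genes tested it called 3, or 0.0225%, with 2 higher (0.015%) and 1 lower (0.0075%) in KO. At an unadjusted p under 0.05 there were 2 members, Slc25a25 with a negative and Slc25a34 with a positive log2 fold change, which is 4.88% of those tested against 6.4% of all genes (3.5% positive, 2.89% negative). DESeq2 also called 0 members (2 at an unadjusted p under 0.05), as did limma-voom (3 at that level). The smallest adjusted p of any member was 0.711, and it ran from 0.257 to 0.968 over the alternative fits. None of the 41 had WT and KO values that did not overlap, against 4.12% of all genes (2.14% higher and 1.98% lower in KO). Log2 fold changes were positive for 17 members (41.5%) and negative for 24, while 49.4% of all genes were positive. The median was -0.051, beside -0.0032 over all genes tested. Signs near 0 were not stable: the number of positive members was 13 on library totals and 15 to 20 with a heart left out, and the sign of 13 members turned in at least 1 of those fits with a heart left out.

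The size of difference these hearts can hide varies by member. The 95% confidence interval of the fold change lay within 1.5-fold in either direction for 23 members and within 2-fold for 36. It reached past 2-fold for 5, namely Slc25a25 and the scarce Slc25a18, Slc25a30, Slc25a31 and Slc25a53. The median SE of a log2 fold change was 0.170 for the members and 0.158 for all genes. Point estimates were within 0.2 on the log2 scale for 26 members and within 0.5 for 39.

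**Figure D1:**
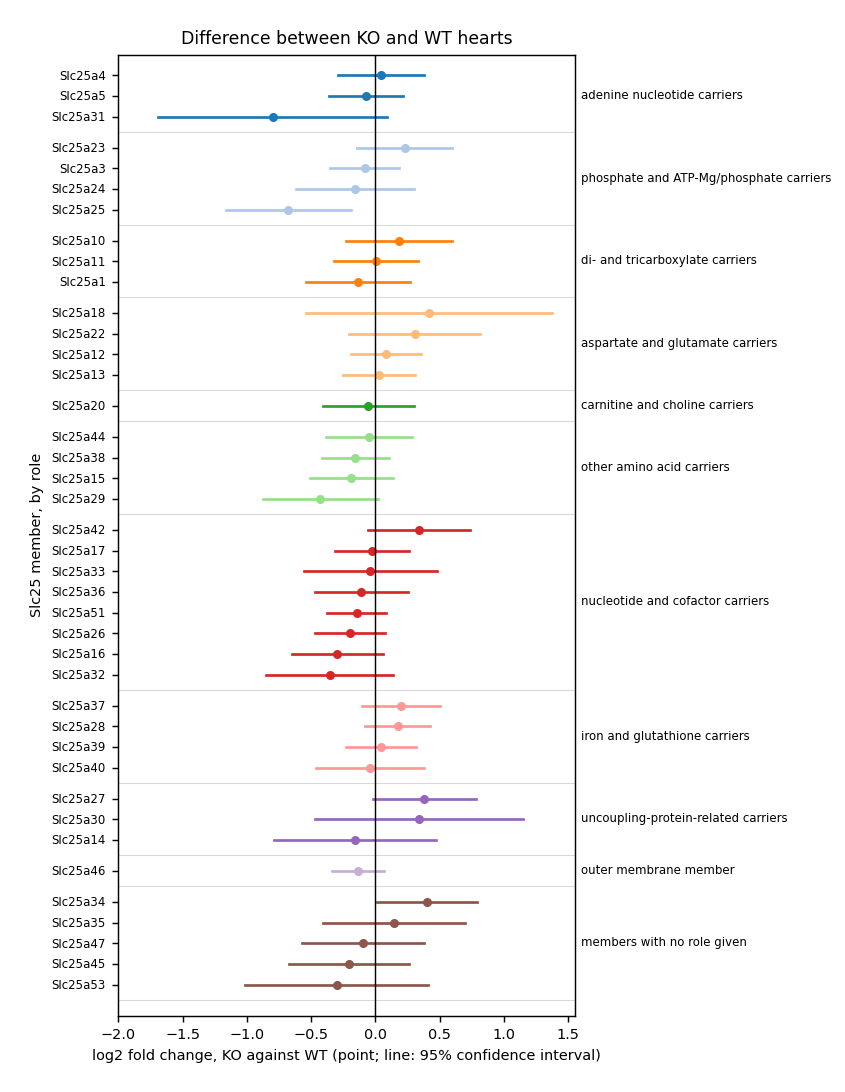
Log2 fold change of KO against WT for 40 of the 41 tested carriers, grouped by role (points), with 95% confidence intervals (lines). Nearly all intervals cross 0, and Slc25a25 below 0 and Slc25a34 above 0 are the exceptions, neither with an adjusted p under 0.05.

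The ventricle's carrier transcripts were dominated by a single gene. Divided by kilobases of exon so that genes can be compared, Slc25a4 had a mean level of 2553 ± 414 CPM per kb in WT and 2632 ± 390 in KO (SD, n = 4). It was the highest member in every library and made up 72.9% to 77.6% of the summed level of the 47 carriers. Its share was 74.4 ± 1.79% in WT and 75.0 ± 1.76% in KO (SD, n = 4). The next levels were 269 ± 33.1 CPM per kb in WT and 255 ± 18.1 in KO for Slc25a3, 176 ± 35.7 and 177 ± 20.7 for Slc25a11, and 111 ± 19.4 and 106 ± 8.79 for Slc25a5. These 4 genes kept ranks 1 to 4 in all 8 libraries and held 89.4% to 92.3% of the family's level. Ranks 5 and 6 were not separated, with Slc25a34 at 39.6 ± 7.12 in WT and 52.3 ± 13.2 in KO and Slc25a39 at 40.5 ± 6.72 and 41.8 ± 3.08 CPM per kb. Slc25a20 followed at 27.1 and 26.1, then Slc25a12 at 21.7 and 23.1 and Slc25a13 at 22.0 and 22.4 CPM per kb. The summed level of the family ran from 2806 CPM per kb in WT replicate 1 to 4094 in KO replicate 5. By longest transcript in place of all exons the first 4 ranks held, and the mean share of Slc25a4 was 73.1% in place of 74.7%.

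**Figure D2:**
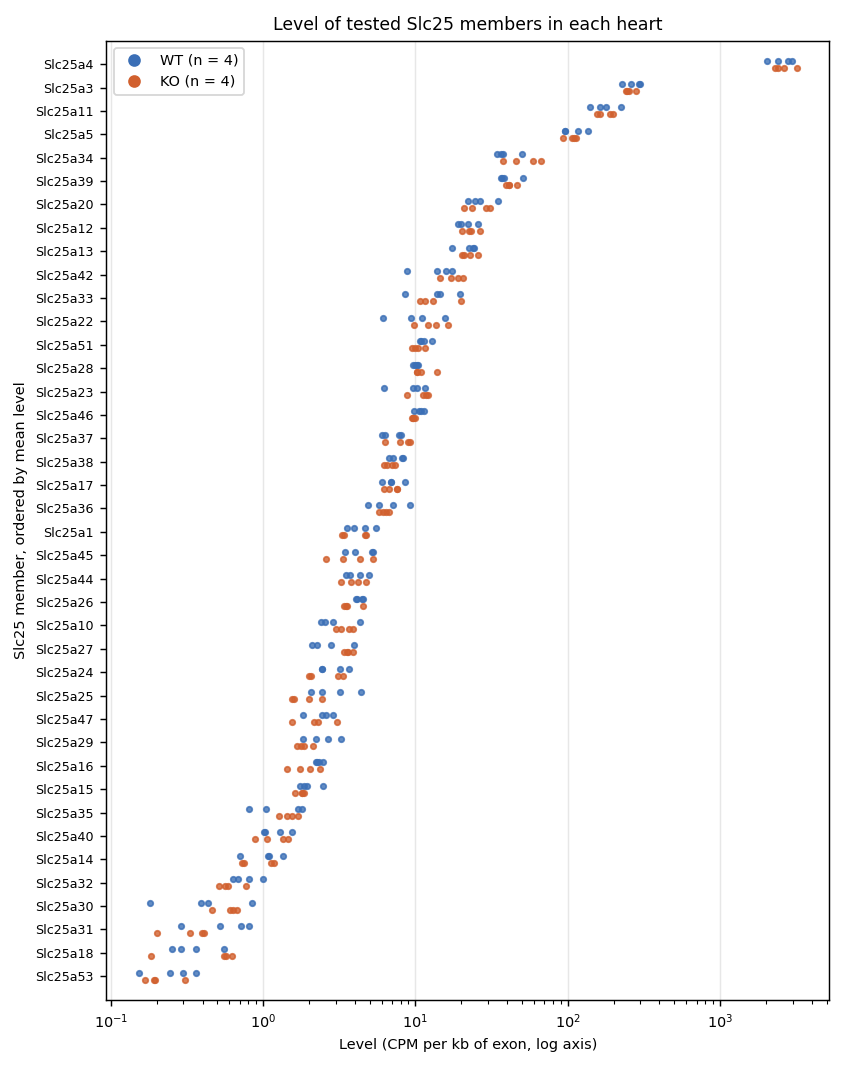
Level of 40 of the 41 tested carriers in every heart, in CPM per kb of exon on a log axis, with WT and KO hearts in different colours. Slc25a4 lies at 2046 to 3176 and Slc25a3 at 227 to 297 CPM per kb, and the ranges of WT and KO overlap for every member drawn.

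Promoter sequence is shown for 6 of the 10 members with the highest levels, all those whose upstream stretch holds no exon of any gene and is long enough after the cut described here: Slc25a3, Slc25a5, Slc25a34, Slc25a20, Slc25a12 and Slc25a42. The sequences are RefSeq's (GRCm38.p6), upstream of the listed gene start, 5′ to 3′ on the gene's strand, cut back where they would run into the gene itself. The shortest stretch printed has 158 bases. Capitals mark the motifs searched on both strands, namely AAGGTCA (a nuclear receptor half-site), the NRF1 motif, TATAAA (found in some core promoters), CCAAT (bound by NF-Y) and GGGCGG (bound by Sp1 and its relatives), and no marked match overlaps another. The stretch for Slc25a3 is chr10:91124060-91124217 on the minus strand, for Slc25a5 chrX:36795347-36795596 on the plus strand, for Slc25a34 chr4:141623892-141624084 on the minus strand, for Slc25a20 chr9:108661886-108662087 on the plus strand, for Slc25a12 chr2:71367782-71368005 on the minus strand and for Slc25a42 chr8:70212306-70212531 on the minus strand.
Slc25a3: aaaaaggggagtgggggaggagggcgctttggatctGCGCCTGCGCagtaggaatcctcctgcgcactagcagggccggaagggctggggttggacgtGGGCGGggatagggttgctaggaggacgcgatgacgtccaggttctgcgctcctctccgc
Slc25a5: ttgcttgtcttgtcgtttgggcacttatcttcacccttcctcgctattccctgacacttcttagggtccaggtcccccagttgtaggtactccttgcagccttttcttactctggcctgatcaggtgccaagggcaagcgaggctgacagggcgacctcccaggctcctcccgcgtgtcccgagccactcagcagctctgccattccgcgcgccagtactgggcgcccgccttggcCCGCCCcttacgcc
Slc25a34: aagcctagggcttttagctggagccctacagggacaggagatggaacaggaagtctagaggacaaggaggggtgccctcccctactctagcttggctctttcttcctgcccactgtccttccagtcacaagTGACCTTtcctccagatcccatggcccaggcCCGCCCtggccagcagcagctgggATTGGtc
Slc25a20: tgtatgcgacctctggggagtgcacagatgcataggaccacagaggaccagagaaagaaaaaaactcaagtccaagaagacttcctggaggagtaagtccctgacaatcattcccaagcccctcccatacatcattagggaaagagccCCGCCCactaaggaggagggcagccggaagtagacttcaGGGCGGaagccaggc
Slc25a12: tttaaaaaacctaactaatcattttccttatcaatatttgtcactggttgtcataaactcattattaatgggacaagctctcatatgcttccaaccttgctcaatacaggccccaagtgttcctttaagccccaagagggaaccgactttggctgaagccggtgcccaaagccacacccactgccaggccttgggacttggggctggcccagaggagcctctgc
Slc25a42: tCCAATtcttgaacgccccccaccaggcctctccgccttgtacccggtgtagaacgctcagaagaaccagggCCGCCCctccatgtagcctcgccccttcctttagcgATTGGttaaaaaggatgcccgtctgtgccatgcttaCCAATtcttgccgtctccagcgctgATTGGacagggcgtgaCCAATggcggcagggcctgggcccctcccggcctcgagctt
The Slc25a34 stretch holds an AAGGTCA match on the opposite strand, and the Slc25a42 stretch holds 5 CCAAT matches. Slc25a3 has a match to the NRF1 motif, and Slc25a5 has a GGGCGG match 14 bases upstream of its RefSeq start, which itself lies upstream of its GENCODE M21 start. The Slc25a20 stretch holds 2 GGGCGG matches, and none of the motifs is in the Slc25a12 stretch. Over the full 250 bases, 36 of the 47 members had a promoter in the table. AAGGTCA was in 1 of them (2.78%), against 3.58% of 17492 protein-coding genes. The NRF1 motif was in 2 (5.56% against 5.3%), TATAAA in 1 (2.78% against 12.4%), CCAAT in 16 (44.4% against 36.3%) and GGGCGG in 24 (66.7% against 42.7%). These are letter matches, not measured binding.

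Among the adenine nucleotide carriers, none of 3 passed the test (median log2 fold change -0.072, 1 positive and 2 negative). Slc25a4, the ADP/ATP carrier of heart and skeletal muscle (ENSMUSG00000031633, chr8:46206797-46211284, minus strand), stood at 4813, 6970.1, 5639 and 6605 CPM in the WT hearts and 7473, 5432, 5641 and 6223 CPM in the KO hearts, in replicate order. The highest heart was KO replicate 5 and the lowest WT replicate 1, and the groups overlapped. The log2 fold change was 0.044 (SE 0.15, adjusted p = 0.973), with an interval from 0.817-fold to 1.30-fold, and its sign turned without WT replicate 1 (-0.048), without KO replicate 5 (-0.059) or on library totals (-0.0057). Slc25a5, the broadly expressed ADP/ATP carrier (chrX:36795651-36798807, plus strand), stood at 157, 191, 158 and 224 CPM in WT and 175, 153, 180.4 and 187 CPM in KO. Its groups also overlapped, with an interval from 0.778-fold to 1.16-fold. Slc25a31, the form known from testis, was near the detection limit at 1.53, 1.11, 1.72 and 0.614 CPM in WT and 0.840, 0.426, 0.706 and 0.875 CPM in KO. This gave a log2 fold change of -0.80 (SE 0.41, adjusted p = 0.777) and the widest spread between hearts of any tested member (CV 45.8%).

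Of the phosphate and ATP-Mg/phosphate carriers, none of the 4 tested passed (median log2 fold change -0.12, 1 positive and 3 negative). Slc25a3, the phosphate carrier (chr10:91116574-91124059, minus strand), stood at 1261, 1633, 1435 and 1650.0 CPM in WT and 1392, 1362, 1336 and 1559 CPM in KO. The WT hearts spanned the KO hearts on both sides, and the log2 fold change was -0.082 (SE 0.12, adjusted p = 0.926, interval 0.784-fold to 1.14-fold). The other 3 are ATP-Mg/phosphate carriers regulated by calcium, which set the adenine nucleotide content of the matrix. Slc25a25 (chr2:32414487-32451445, minus strand) was at 16.2, 25, 19.3 and 34.6 CPM in WT and 12.5, 15.7, 19.1 and 12.2 CPM in KO. WT replicate 4 stood above the rest, and 3 of the 4 KO hearts lay below all WT hearts. This member had the smallest unadjusted p of the family (0.010), with a log2 fold change of -0.68 (SE 0.22, adjusted p = 0.711, interval 0.447-fold to 0.875-fold). Without WT replicate 4 the log2 fold change was -0.44. Its exons share 379 bases with Naif1 on the opposite strand, and the strand setting of the counting is unknown. Slc25a23 was at 60.7, 32.7, 50.7 and 54.4 CPM in WT and 62.0, 63.9, 46.9 and 59.8 CPM in KO (log2 fold change 0.23, SE 0.17, adjusted p = 0.818), and the value was 0.073 without WT replicate 2. Slc25a24 was at 10.9, 12.6, 8.33 and 8.37 CPM in WT and 7.07, 6.88, 11.5 and 10.6 CPM in KO (log2 fold change -0.16, SE 0.21, adjusted p = 0.910), with -0.035 without WT replicate 2. Both overlapped between genotypes.

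Of the di- and tricarboxylate carriers, 3 were tested and none passed (median log2 fold change 0.0046, 2 positive and 1 negative). Slc25a11, the oxoglutarate carrier that exchanges it for malate (chr11:70644196-70647479, minus strand), was at 296, 378, 345 and 475 CPM in WT and 421, 332, 343 and 403 CPM in KO. Group means were 373 ± 75.6 and 375 ± 43.8 CPM (SD, n = 4), with an interval from 0.801-fold to 1.26-fold. Its exons overlap Rnf167 on the opposite strand by 189 bases. Slc25a1, the citrate carrier, ran from 7.17 to 11.9 CPM over all hearts, and Slc25a10, the dicarboxylate carrier, from 8.33 to 15 CPM.

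All 4 aspartate and glutamate carriers had positive log2 fold changes and none passed the test (median 0.19), but Slc25a13, at 0.028, was negative on library totals (-0.024) and without WT replicate 1 (-0.071) or KO replicate 8 (-0.045). Slc25a12 and Slc25a13 both exchange aspartate for glutamate in the malate-aspartate shuttle. Slc25a12 was at 140.4, 164, 147 and 188 CPM in WT and 165, 171, 148 and 194 CPM in KO. Slc25a13 was at 65.6, 91.1, 85.4 and 91.6 CPM in WT and 79.6, 77.0, 86.0 and 97.7 CPM in KO. The intervals were 0.876-fold to 1.28-fold for Slc25a12 and 0.840-fold to 1.24-fold for Slc25a13. Slc25a22, a glutamate carrier, ran from 36.5 to 93.5 CPM in WT and from 58.8 to 97.5 CPM in KO (log2 fold change 0.30, SE 0.23, adjusted p = 0.823), a value that was 0.12 without WT replicate 2 and 0.55 without WT replicate 4. Slc25a18, the other glutamate carrier, was near 1 CPM or below in all hearts. The 4 enzymes of the malate-aspartate shuttle, Mdh1, Mdh2, Got1 and Got2, all had negative log2 fold changes, from -0.070 to -0.022, and none passed. Each of these values was smaller than its SE (0.12 to 0.15).

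Slc25a20, which carries acylcarnitines inward and carnitine outward for fatty acid oxidation, was at 119.6, 128, 108 and 169.6 CPM in WT and 140.1, 114, 101 and 150.1 CPM in KO. The log2 fold change was -0.054 (SE 0.16, adjusted p = 0.969), with an interval from 0.755-fold to 1.23-fold. The 4 tested carriers of other amino acids all had negative log2 fold changes (median -0.17), and none passed. Slc25a44 was positive without WT replicate 1 (0.050) or KO replicate 7 (0.033). Slc25a29, a carrier of basic amino acids, was at 6.91, 4.79, 5.80 and 8.45 CPM in WT and 4.62, 4.33, 5.57 and 4.81 CPM in KO. WT replicate 4 was the highest and the groups overlapped, with a log2 fold change of -0.43 (SE 0.21, adjusted p = 0.777) that was -0.28 without that heart. Log2 fold changes were -0.19 for the ornithine carrier Slc25a15, -0.16 for the glycine carrier Slc25a38 and -0.051 for Slc25a44, a carrier of branched-chain amino acids.

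Of 9 nucleotide and cofactor carriers, none passed, with 2 positive and 7 negative log2 fold changes (median -0.11). Slc25a42, a coenzyme A carrier (chr8:70184340-70212305, minus strand), was at 83.0, 53.0, 105 and 95.3 CPM in WT and 122, 114, 86.8 and 102 CPM in KO. WT replicate 2 was the lowest, and the log2 fold change of 0.34 (SE 0.18, adjusted p = 0.784) was 0.17 without it. Slc25a16, whose yeast relative is linked to coenzyme A in mitochondria, was at 10.7, 11.9, 11.2 and 10.8 CPM in WT and 6.93, 9.79, 8.39 and 11.3 CPM in KO. Its WT hearts were close together, and 3 of the 4 KO hearts lay below them (log2 fold change -0.29, SE 0.16, adjusted p = 0.784). Slc25a33 and Slc25a36 carry pyrimidine nucleotides. Slc25a33 was at 16.1, 37.2, 26.1 and 27.3 CPM in WT and 21.7, 24.8, 20.1 and 37.5 CPM in KO. Slc25a36 was at 68.1, 88.7, 55.5 and 47.0 CPM in WT and 55.6, 58.5, 64.8 and 61.4 CPM in KO. Both overlapped throughout, with log2 fold changes of -0.039 and -0.11. Log2 fold changes were -0.15 for the NAD+ carrier Slc25a51, -0.20 for the S-adenosylmethionine carrier Slc25a26, -0.36 for the folate carrier Slc25a32 and -0.028 for the peroxisomal cofactor carrier Slc25a17.

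The iron and glutathione carriers had 3 positive and 1 negative log2 fold changes (median 0.11), and none of the 4 passed. Slc25a37 and Slc25a28 are the mitoferrins, which bring iron into mitochondria, and Slc25a37 is best known from red cell precursors. Slc25a37 was at 48.2, 36.5, 47.2 and 38.0 CPM in WT and 55.2, 53.8, 47.5 and 38.2 CPM in KO. Slc25a28 was at 37.3, 36.1, 38.5 and 38.8 CPM in WT and 52.0, 40.7, 38.6 and 38.5 CPM in KO. Their log2 fold changes were 0.20 (SE 0.14, adjusted p = 0.816) and 0.17 (SE 0.12, adjusted p = 0.809), the latter 0.061 without KO replicate 5. Beside them, all 5 erythroid markers had positive log2 fold changes, and Alas2, the first enzyme of heme synthesis in red cells, was at 18.6 to 29.8 CPM in WT and 22.5 to 39.3 CPM in KO. The 5 erythroid markers summed to 815, 1782, 1148 and 1696 CPM in the WT hearts. In the KO hearts they summed to 2147, 1146, 1784 and 1565 CPM. The part of red cell RNA in the mitoferrin values was not tested. Slc25a39 and Slc25a40 are glutathione carriers. Slc25a39 was at 101, 105, 102 and 139 CPM in WT and 127, 113, 108 and 113 CPM in KO. Slc25a40 was at 12.9, 8.48, 10.9 and 8.68 CPM in WT and 8.89, 7.45, 11.3 and 12.3 CPM in KO. Neither pair of groups was separated (log2 fold changes 0.045 and -0.043).

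The carriers related to uncoupling proteins had 2 positive and 1 negative log2 fold changes and none passed. Slc25a27, also called UCP4, was at 15.5, 8.85, 11 and 8.29 CPM in WT and 14.2, 14.1, 15.3 and 13.4 CPM in KO. WT replicate 1 stood above all KO hearts, and the other 3 WT hearts lay below them. The log2 fold change was 0.38 (SE 0.18, unadjusted p = 0.0593, adjusted p = 0.777), and 0.60 without WT replicate 1 (adjusted p = 0.257). Slc25a30 reached at most 3.85 CPM in any heart and Slc25a14 ran from 1.66 to 3.19 CPM over all hearts. Slc25a46, which sits in the outer membrane, varied least between hearts of all tested members (CV 6.65%). WT hearts averaged 57.7 ± 3.54 CPM and KO hearts 52.5 ± 0.833 CPM (SD, n = 4), with a log2 fold change of -0.14 (SE 0.094, adjusted p = 0.811).

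Slc25a34 led the 5 tested members to which no role is given here. This gene (chr4:141618824-141623821, minus strand) was at 99.6, 97.7, 91.7 and 134 CPM in WT and 179, 122, 101 and 157 CPM in KO. KO replicates 5 and 8 lay above all WT hearts, KO replicates 6 and 7 within them. Means were 106 ± 19.0 and 139.7 ± 35.2 CPM (SD, n = 4), and the log2 fold change was 0.40 (SE 0.18, unadjusted p = 0.043, adjusted p = 0.772, interval 1.01-fold to 1.73-fold). It was 0.26 without KO replicate 5 and at most 0.53 when any other heart was left out. Log2 fold changes of the other 4 were 0.14 for Slc25a35, -0.095 for Slc25a47, -0.20 for Slc25a45 and -0.30 for Slc25a53. The exons of Slc25a35 share 1151 bases with Rangrf on the opposite strand. In all, 12 of the 47 members have such an overlap with a gene on the opposite strand, 11 of them tested.

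The 6 members that were not tested had few or no reads. Slc25a2, an ornithine carrier, had 2, 1, 8 and 3 counts in WT and 10, 9, 2 and 2 in KO. Slc25a43 had 3, 2, 4 and 4 counts in WT and 2, 2, 2 and 1 in KO. Slc25a21 had 1 count in KO replicate 6 and 1 in KO replicate 7, Slc25a41 had 1 in KO replicate 5 and Slc25a48 had 1 in WT replicate 1. Slc25a54 had 0 in all 8 libraries. A count of 0 allows a level of up to 0.204 to 0.270 CPM, depending on the library (3 counts, counting error only), so absence was not shown.

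Ratios of 2 carriers in the same library do not depend on scaling, and 7 pairs with the same or like substrates were tested by exact permutation of the hearts (two-sided, 70 assignments, smallest possible p 0.0286). No pair passed after Benjamini-Hochberg adjustment over the 7 pairs. With so few assignments, a lone pair could not have passed even with its WT and KO hearts fully apart. The adjusted values therefore cannot show that the ratios were equal. What the ratios do show is that WT and KO hearts overlapped for every pair. Per kb of exon, Slc25a4 exceeded Slc25a5 by 23.1 ± 2.47 times in WT and 24.9 ± 3.45 times in KO (SD, n = 4, exact p = 0.486, adjusted 0.833). Slc25a12 and Slc25a13 were level per kb, at a ratio of 0.996 ± 0.104 in WT and 1.03 ± 0.109 in KO (exact p = 0.686, adjusted 0.833). Their undivided counts gave ratios of 1.71 to 2.22. Slc25a42 over Slc25a16 was 6.22, 3.57, 7.48 and 7.04 in WT and 14.1, 9.30, 8.28 and 7.22 in KO. In 3 of the 4 KO hearts the ratio was above all WT hearts, and the fourth lay inside the WT range. The log2 ratio differed by 0.69 (exact p = 0.0571, adjusted 0.400), which was 0.45 without WT replicate 2. Slc25a23 exceeded Slc25a24 by 3.36 ± 1.15 times in WT and 4.50 ± 1.62 times in KO (exact p = 0.400, adjusted 0.833), on average 3.93 times over all hearts and 6.19 with longest transcripts. The glutathione carrier Slc25a39 exceeded Slc25a40 by 34.6 ± 11.1 and 36.6 ± 9.45 times (exact p = 0.714, adjusted 0.833). The ratio of Slc25a33 to Slc25a36 was 2.17 and 2.20 (exact p = 0.914, adjusted 0.914), but this level depends on the length used: over all hearts it averaged 2.19, and 1.19 with longest transcripts, a choice made after seeing the data, while undivided counts gave 0.236 to 0.610. The ratio of Slc25a28 to Slc25a37 was 1.44 and 1.41 per kb (exact p = 0.657, adjusted 0.833), while undivided counts gave 0.757 to 1.02.

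**Figure D3:**
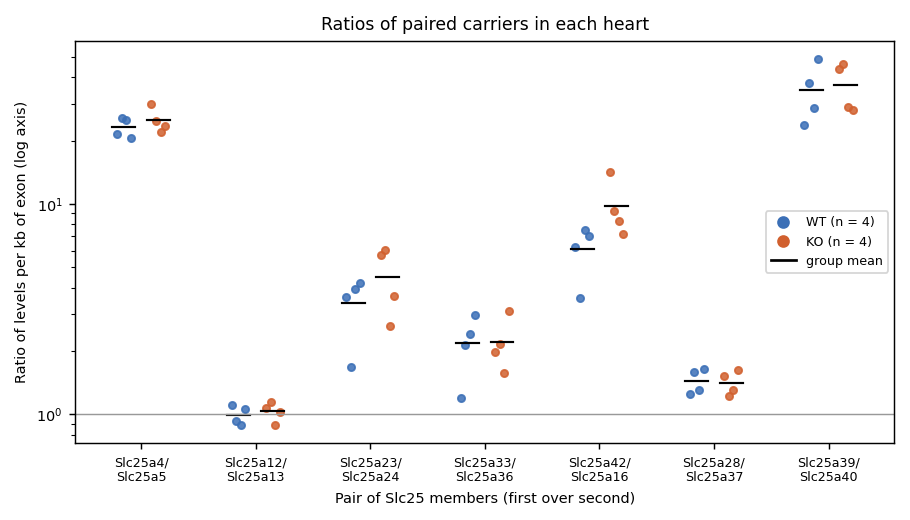
Ratio of levels per kb of exon for 7 pairs of carriers in each heart, on a log axis, with group means as lines. The ratio of Slc25a42 to Slc25a16 has KO points at 7.22 to 14.1 and WT points at 3.57 to 7.48, and the groups overlap for all pairs.

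The highest and lowest hearts of the carriers came from both genotypes. WT replicate 4 was the highest heart for 11 of the 41 tested members, among them Slc25a3, Slc25a5, Slc25a11, Slc25a20, Slc25a25 and Slc25a29. KO replicate 5 was the highest for 8, among them Slc25a4, Slc25a34 and Slc25a42. WT replicate 1 was the lowest for 7, and these included Slc25a3, Slc25a4, Slc25a11, Slc25a12 and Slc25a13, while it was the highest for 6 others such as Slc25a27 and Slc25a30. WT replicate 2 was the lowest for 9, among them Slc25a22, Slc25a23 and Slc25a42. The median deviation of members from their own mean ran from -0.090 in KO replicate 7 to 0.11 in WT replicate 4 on the log2 scale. Over the 8 hearts the CV was 9.91% for Slc25a3 and 14.4% for Slc25a4, against 38.5% for Slc25a25 and 40.5% for Slc25a18.

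**Figure D4:**
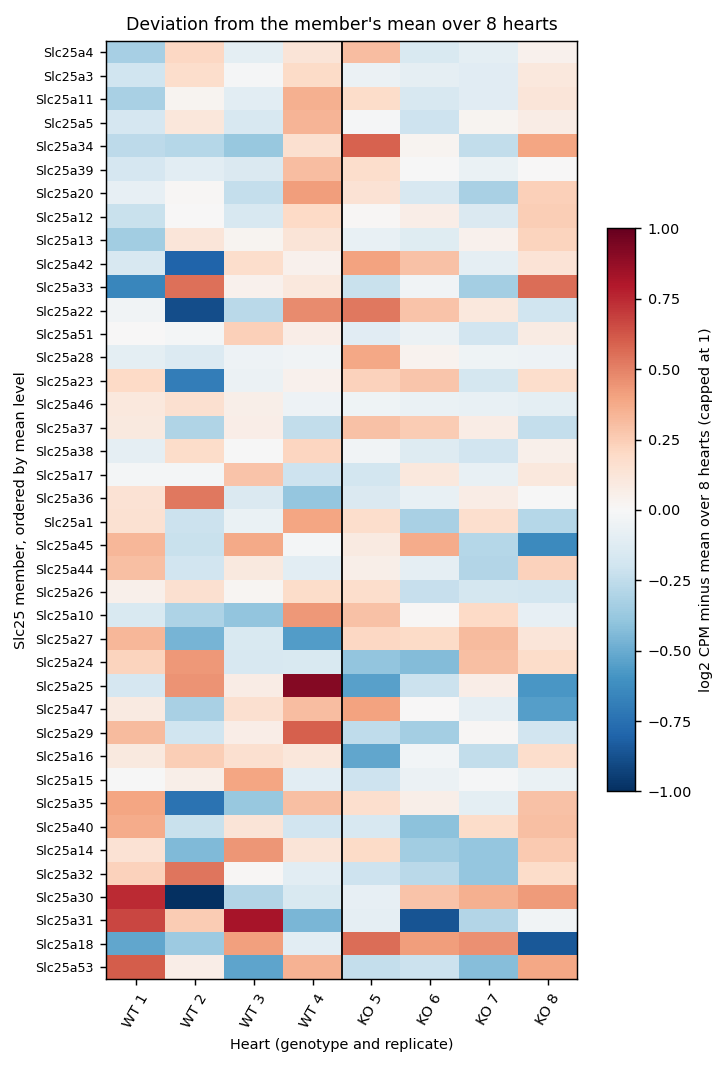
Deviation of log2 CPM from each carrier's own mean over the 8 hearts, for 40 of the 41 tested members ordered by level, with WT hearts left of the line and KO hearts right. No member has its 4 KO hearts fully apart from its 4 WT hearts, and single hearts such as WT replicate 4 are high for several members at once.

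Abundant carriers were set beside other measures of mitochondria in the same hearts. The reference was 11 nuclear genes of the citrate cycle, the respiratory chain and ATP synthase. They summed to 16761, 20466, 15844 and 20943 CPM in WT and 19380, 18271, 17239 and 20482 CPM in KO. WT replicates 1 and 3 were the lowest hearts in this sum, and WT replicate 1 was also the lowest in Slc25a4 and Slc25a3 and the highest in mitochondrially encoded counts. None of the 11 passed the test, with 8 positive and 3 negative log2 fold changes (median 0.059). Without WT replicate 1 the log2 fold change was -0.048 for Slc25a4, -0.15 for Slc25a3 and -0.092 for Slc25a11. The part of mitochondrial content in these values was not tested, and with mitochondrially encoded genes left out of all libraries no member passed either.

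**Figure D5:**
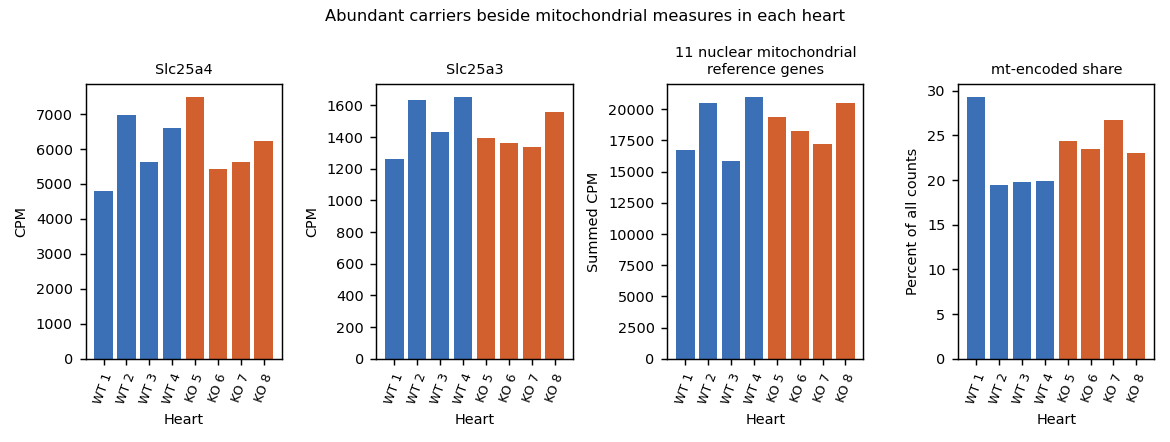
Bars give, for each heart, the level of abundant carriers beside the share of mitochondrially encoded counts and the summed mitochondrial reference genes. WT replicate 1 has the lowest Slc25a4 (4813 CPM) and the highest mitochondrially encoded share (29.2%).

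No gene of the related transport lists passed the test. Of 4 tested relatives of the family under other names, 3 had positive and 1 a negative log2 fold change (median 0.22). Ucp3, the uncoupling protein of muscle, was at 78.7, 24.9, 30.0 and 90.4 CPM in WT and 151, 98.8, 73.7 and 67.7 CPM in KO. Its WT hearts formed a high and a low pair, the KO hearts overlapped the high pair, and the log2 fold change was 0.80 (SE 0.38, adjusted p = 0.777). Log2 fold changes were 0.30 for Ucp2 (adjusted p = 0.784), 0.14 for Mtch1 and -0.088 for Mtch2, both outer membrane relatives of the carriers. Ucp1, the uncoupling protein of brown fat, had at most 0.0875 CPM in any heart.

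Carriers reach the inner membrane through the TIM22 complex and small chaperones of the intermembrane space. Of these 10 import genes, 2 had positive and 8 negative log2 fold changes (median -0.13), with -0.23 for the receptor Tomm70a (SE 0.12, adjusted p = 0.779), -0.17 for Timm8b, -0.16 for Timm10 and 0.022 for Timm22. Of 19 other transport genes of the inner and outer membranes, 7 were positive and 12 negative (median -0.047). These included 0.26 for Sfxn3, 0.21 for Abcb8 and 0.050 for Vdac1, the main channel of the outer membrane. The 4 shuttle enzymes had a median of -0.046, with -0.070 for Got1, -0.053 for Mdh1 and -0.040 for Got2.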

How the data were processed

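Per the labels' protocols, TRIzol RNA went into TruSeq stranded mRNA libraries. The submitters' processing notes name STAR 2.7.1a and the builds GRCm38 and mm10. The authors deposited 1 table of raw counts per Ensembl gene, 1 column per heart, not normalized. How reads were counted, on which strand and against which gene models is not given in the sources used, so reads of genes overlapping on opposite strands may be mixed, and those of near-identical copies split. Symbols, positions and exon lengths came from GENCODE M21, which 36345 of 38293 identifiers matched.

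The main test was edgeR 4.0.16 in R 4.3.3 (glmQLFit and glmQLFTest, two-sided, genotype only), on TMM-scaled libraries and genes that filterByExpr kept at a minimum count of 10. P-values were adjusted by Benjamini-Hochberg over 13336 genes, with a threshold of 0.05. Only the edgeR test was also run on simulated counts, drawn after the main fit from its means and common dispersion. SEs were derived from the main fit, as the absolute log2 fold change over the square root of the F statistic. Intervals are 95% and use these SEs with t quantiles. Levels per length are TMM-scaled CPM over kilobases of merged exons. Pair ratios were tested by exact permutation (scipy 1.17.1). No library repeated another: chi-square over degrees of freedom was 10.8 to 55.5 between pairs. The labels do not tell of litters or batches, so p-values measure the spread between these hearts.

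Alternatives tried were scaling by library totals or by DESeq2 size factors, the DESeq2 1.42.0 test, limma-voom (limma 3.58.1), no filter, 1 CPM in at least 4 libraries, removal of mitochondrially encoded genes, another length or none, 0.5 added counts and leaving out each heart. The members and lists were chosen with earlier results of these data known. Members were accounted for by name or in the counts; values per heart were given for members past the threshold, the 5 highest per length, the 6 with the smallest p and the genes of the pairs, and Slc25a20 was added after its values were seen. Of the other lists, up to 3 members each by p were named, with Ucp2, Ucp3, Mtch2, Vdac1 and Timm22. A tested member and a gene of these lists that the rules name are not reported here by name.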

Additional observations from a re-analysis of the deposited data

Results flagged for a closer look

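Of 98 groups of 4 hearts examined, 4 held a heart far from the others by Dixon's criterion, where chance gives about 1 in 20. Slc25a18 was at 0.350 CPM in KO replicate 8 and at 1.06 to 1.19 CPM in the other KO hearts. Slc25a26 was at 21.8 CPM in KO replicate 5, against 16.4 to 17.0 CPM in the others. Slc25a28 was at 52.0 CPM in KO replicate 5, against 38.5 to 40.7 CPM. Slc25a39 was at 139 CPM in WT replicate 4, against 101 to 105 CPM in the other WT hearts.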

How the results depend on the processing

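No paired analysis was run, because the labels give no pairing between WT replicates 1 to 4 and KO replicates 5 to 8. The count of members past the threshold was 0 under every alternative run. The number of genes called over the whole table was 3, but 11 with DESeq2 and 10 with no filter, and 2 to 6 when a heart was left out (5 without WT replicate 1, 6 without WT replicate 4). The cause was not tested. Nbdy kept a log2 fold change of -0.99 to -0.95 with each heart left out. The median over members ran from -0.091 to -0.0062 in those fits and was -0.0997 on library totals, where the median of all genes was -0.051.

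Of 286 values of single members under the other settings, 282 kept their direction. The 4 that did not were on library totals: Slc25a11 -0.047, Slc25a13 -0.024, Slc25a39 -0.0041 and Slc25a4 -0.0057. Leaving out hearts gave 328 values, of which 26 changed sign, in 13 members and none larger than 0.16. Their ranges were -0.092 to 0.14 for Slc25a11, -0.071 to 0.073 for Slc25a13, -0.0069 to 0.17 for Slc25a39, -0.059 to 0.12 for Slc25a4, -0.16 to 0.089 for Slc25a40, -0.14 to 0.050 for Slc25a44, -0.26 to 0.16 for Slc25a33, -0.032 to 0.32 for Slc25a35, -0.24 to 0.080 for Slc25a36, -0.10 to 0.069 for Slc25a17, -0.15 to 0.090 for Slc25a20, -0.14 to 0.037 for Slc25a5 and -0.27 to 0.044 for Slc25a47. Log2 differences of pair ratios changed sign for Slc25a33/Slc25a36 (-0.21 to 0.22), Slc25a39/Slc25a40 (-0.066 to 0.28), Slc25a28/Slc25a37 (-0.10 to 0.038) and Slc25a12/Slc25a13 (-0.0018 to 0.12). Without division by length, the mean share of Slc25a4 was 64.2% in place of 74.7%.

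Depth limits the scarce members most: the interval of Slc25a18 ran from 0.688-fold to 2.60-fold. The filter of 1 CPM in at least 4 libraries left 40 members. With a heart left out, 4 against 3, the smallest exact p of a pair ratio is 0.0571.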
